A study of Mus musculus with 8 samples.

Results

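Dual-specificity phosphatases of the MAP kinase group and Sprouty proteins were measured as transcripts in mouse dorsal root ganglia 24 h after a crush of the sciatic nerve. The set was given by name: Dusp1, Dusp4, Dusp5, Dusp6, Dusp8, Dusp10, Dusp16, Dusp26, Spry2 and Spry4, 10 of the 24033 gene symbols in the count table. The injury group held 4 libraries of lumbar ganglia (L4 to L6) from the side of the crushed nerve. The naive group held 4 libraries of the same ganglia from the uncrushed side of operated mice, so both groups came from animals with an injury. Ganglia of 2 mice were pooled in each repeat. The labels call the tissue dissociated ganglia and name no strain, age, sex or transgene. Libraries were made from total RNA with a QuantSeq REV kit, which reads the 3′ ends of transcripts, and held 15446931 to 29412510 counts each.

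Signals from growth factors and from stress run through cascades of MAP kinases, of which ERK mainly carries growth factor signals and JNK and p38 mainly carry stress signals. The phosphatases remove the activating phosphates from these kinases, and the Sprouty proteins act further up, between receptor tyrosine kinases and Ras-ERK. Many of these genes are themselves induced by the kinases that their products restrain, which makes them textbook parts of negative feedback, and in sensory neurons ERK and JNK are known to be active after axon injury.

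Promoter windows are shown for 4 phosphatase genes because they differ in elements that such signals are known to use. RefSeq held a window of 250 bases before to 50 after the start for 7 of the 10 genes on GRCm38.p6; Dusp4, Dusp26 and Spry4 were not matched. The windows printed are chr17:26508423-26508722 (minus strand), chr19:53528895-53529194 (plus), chr7:142095235-142095534 (minus) and chr1:184034131-184034430 (plus), each 5′ to 3′ along its gene. Capitals mark matches on either strand to the cAMP response element TGACGTCA, its half-site TGACG, the AP-1 motif TGANTCA, the ETS motif CCGGAA or the CArG box of serum response factor.
Dusp1: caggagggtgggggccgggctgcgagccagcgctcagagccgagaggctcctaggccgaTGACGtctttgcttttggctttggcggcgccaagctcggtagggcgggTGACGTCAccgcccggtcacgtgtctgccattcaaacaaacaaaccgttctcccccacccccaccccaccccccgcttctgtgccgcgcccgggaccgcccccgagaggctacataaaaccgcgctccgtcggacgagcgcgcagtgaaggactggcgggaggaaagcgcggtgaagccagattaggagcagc
Dusp5: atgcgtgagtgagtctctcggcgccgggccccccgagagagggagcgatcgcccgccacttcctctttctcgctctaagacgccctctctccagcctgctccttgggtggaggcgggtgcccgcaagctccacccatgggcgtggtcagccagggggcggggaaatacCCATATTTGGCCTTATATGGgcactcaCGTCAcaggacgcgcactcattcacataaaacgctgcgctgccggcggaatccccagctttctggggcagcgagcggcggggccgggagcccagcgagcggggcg
Dusp8: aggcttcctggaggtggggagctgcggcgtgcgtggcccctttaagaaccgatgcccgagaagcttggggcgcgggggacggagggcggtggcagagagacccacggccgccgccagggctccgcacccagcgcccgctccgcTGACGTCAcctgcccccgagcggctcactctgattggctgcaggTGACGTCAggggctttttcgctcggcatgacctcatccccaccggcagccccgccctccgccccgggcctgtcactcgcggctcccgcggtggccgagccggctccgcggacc
Dusp10: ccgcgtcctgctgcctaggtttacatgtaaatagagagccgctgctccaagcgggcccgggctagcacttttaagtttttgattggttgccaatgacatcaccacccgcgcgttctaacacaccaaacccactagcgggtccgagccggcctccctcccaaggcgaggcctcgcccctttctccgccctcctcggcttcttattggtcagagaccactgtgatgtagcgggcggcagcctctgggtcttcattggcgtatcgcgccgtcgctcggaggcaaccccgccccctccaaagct
The Dusp1 window held 1 full cAMP response element, starting 143 bases before the start site, and a separate half-site at 191 bases before it. The Dusp8 window held 2 full elements, at 107 and 63 bases before the start. The Dusp5 window held 2 neighbouring CArG boxes, at 82 and 72 bases before the start, and 1 half-site. The Dusp10 window held none of these motifs. The GENCODE gene models of Dusp1, Dusp5, Dusp8 and Dusp10 reach further upstream than the RefSeq starts used here, so windows of other starts are not covered. The Dusp5 model begins inside its printed window, at base 53529109. Each full element also counts as 2 overlapping half-sites. Of 32851 RefSeq promoter windows of this length, 1.8% held the full element, 20.8% the half-site, 7.8% the AP-1 motif, 14.9% the ETS motif and 1.6% a CArG box. No AP-1 match was found in any of the 7 windows. Among the windows not printed, that of Dusp16 held a half-site at 70 bases before the start. That of Spry2 held an ETS match at base 34 after the start. These matches describe letters and were not tested against the expression values.

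Levels are given as TMM-scaled CPM, with their SD over 4 libraries. Fold changes are log2 values, injury minus naive, with a standard error derived from the test statistic. A change was called where edgeR's quasi-likelihood test gave an adjusted p under 0.05 among 13639 tested genes. Of these genes 12.6% were called, 8.12% higher and 4.47% lower on the injured side. With library totals in place of TMM the higher share of the called genes was 47.0% instead of 64.5%. As a check of the labels, Atf3, a stress-induced transcription factor known to mark injured sensory neurons, stood at 278 to 357 CPM in the injury libraries and 49.0 to 73.2 CPM in the naive ones.

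By the main edgeR test (low-count filter, TMM, no block), Dusp1 and Dusp10 rose on the injured side. None of the 9 genes tested was called lower by it, and Dusp5, at 0 in all libraries, was not tested. Spry4 was called lower by DESeq2 and under some other settings given below. The count is 2 of 9, beside a background of 12.6%, so the count itself does not set these genes apart from the table as a whole. Beyond edgeR's 2 calls, Spry2 and Spry4 had an unadjusted p under 0.05, in opposite directions. DESeq2 and limma-voom also called Dusp1 and Dusp10. The median log2 fold change of the 9 genes was 0.18, against -0.0039 over all genes tested. Dusp1 was also the 1 gene of the 9 whose groups did not overlap, where 16.8% of all tested genes had no overlap (9.8% higher and 7.02% lower on the injured side). Naive replicate 1 stood apart from the other libraries on the second principal component. Without it, Dusp1 and Dusp10 stayed called (adjusted p = 0.00199 and 0.0207). The Dusp10 call was lost, however, when any 1 of the other naive libraries or injury replicate 2, 3 or 4 was left out (adjusted p 0.0818 to 0.153), with the replicate block (0.0563) and with library totals (0.0624). In RNA from the mixed cells of ganglia, a change in the number of cells of a type and a change in RNA per cell cannot be told apart.

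**Figure D1:**
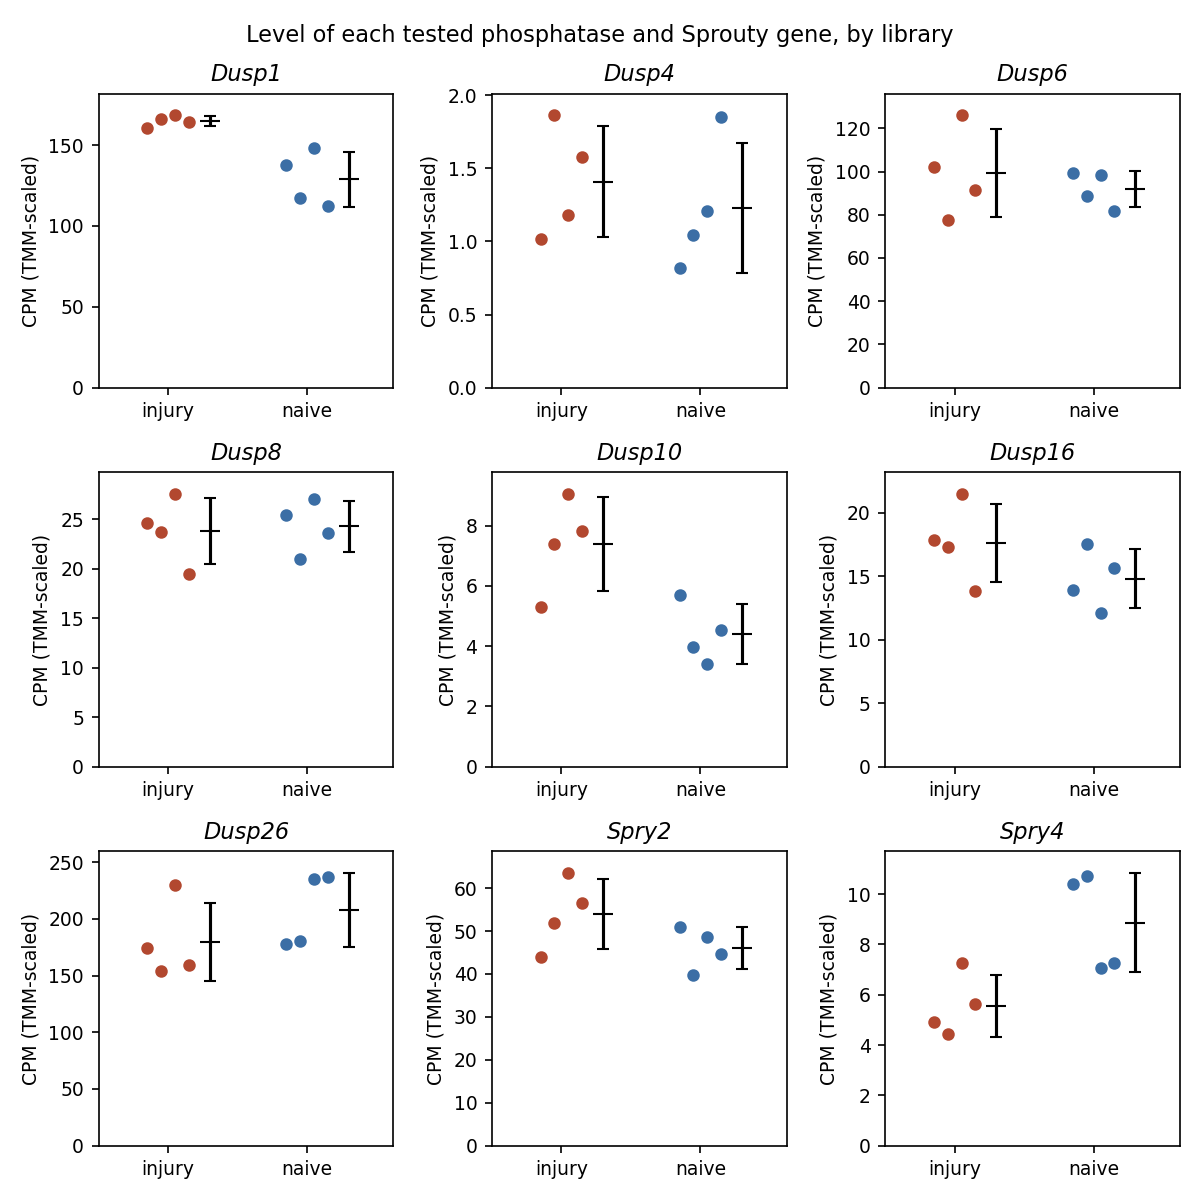
Levels of the 9 tested genes in CPM (TMM-scaled, linear axes from 0), with 1 point per library, injury left and naive right, and the mean ± SD beside each group of 4. Dusp1 is the only panel without overlap, and injury replicate 3, the third point from the left, is the highest injury point in 8 of the 9 panels.

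Dusp1 encodes the nuclear phosphatase that acts on p38, JNK and ERK and is a classic immediate early gene (chromosome 17, 26505590 to 26562128 on GRCm38, minus strand; ENSMUSG00000024190.7). It had 161, 166, 168 and 165 CPM in injury replicates 1 to 4, against 138, 117, 148 and 112 CPM in naive replicates 1 to 4. Every injury library lay above every naive one, and the injury values were closely grouped. Dusp1 averaged 165 ± 3.19 CPM in injury and 129 ± 16.9 CPM in naive ganglia, 1.28-fold higher (log2 fold change 0.36 ± 0.08 (SE), edgeR adjusted p = 0.00213). The call held under all 16 alternative settings, with adjusted p between 0.000305 and 0.0173. Among tested genes its model overlaps Ergic1, on the opposite strand and by 640 bases. Ergic1 itself had a log2 fold change of -0.016. Whether reads were counted by strand is not known from the labels, so reads of overlapping genes may not be told apart.

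Dusp4, another inducible nuclear phosphatase (chromosome 8, 34807297 to 34819894), had few reads, 112 in all injury libraries together and 118 in all naive ones. Its level was 1.02, 1.86, 1.18 and 1.58 CPM in injury replicates and 0.816, 1.05, 1.21 and 1.85 CPM in naive replicates. The groups overlapped almost fully, and a change between 0.542-fold and 2.37-fold lay within the 95% interval (log2 fold change 0.18 ± 0.52, adjusted p = 0.889). Dusp5, the nuclear phosphatase specific for ERK (chromosome 19, 53529109 to 53542431), was listed at 0 in all 8 libraries. A count of 0 allows, at 3 counts, up to 0.101 to 0.188 CPM depending on the library, for counting error only. Kpna2, which encodes a widely used importin, was likewise listed at 0 throughout. Whether either 0 comes from low expression or from the counting was not tested. An antisense gene, AC137853.2, overlaps the Dusp5 model.

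Dusp6, the cytoplasmic phosphatase for ERK (chromosome 10, 99263231 to 99267489), had 102, 77.7, 126 and 91.6 CPM in injury replicates and 99.3, 88.8, 98.4 and 81.8 CPM in naive replicates. The naive values all fell inside the injury range. Its log2 fold change was 0.11 ± 0.12, with a 95% interval of -0.14 to 0.36 and an adjusted p of 0.633. Without injury replicate 3, which held the 126 CPM, the direction turned (log2 fold change -0.034).

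Among the phosphatases that prefer JNK and p38, Dusp10 rose, while Dusp8 and Dusp16 did not pass the test. Dusp10 (chromosome 1, 184013302 to 184075636, plus strand; ENSMUSG00000039384.8) had 5.31, 7.41, 9.04 and 7.82 CPM in injury replicates, against 5.71, 3.96, 3.39 and 4.54 CPM in naive replicates. Injury replicates 2 to 4 were above all naive libraries, while injury replicate 1 was below naive replicate 1. The means were 7.39 ± 1.55 CPM in injury and 4.40 ± 0.991 CPM in naive ganglia, 1.68-fold higher (log2 fold change 0.75 ± 0.24, 95% interval 0.24 to 1.26, edgeR adjusted p = 0.0444). The direction was the same in 16 of 16 alternatives, but 8 of them, named above, ended the call. Leaving out injury replicate 2, 3 or 4 gave 0.0925, 0.153 and 0.116, and leaving out naive replicate 2, 3 or 4 gave 0.110, 0.144 and 0.0818. Its counts, 584 reads in injury and 389 in naive libraries, are few, and its model overlaps 1700056E22Rik on the opposite strand, which was under 1 CPM in both groups.

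Dusp16 (chromosome 6, 134715468 to 134792625) had 17.8, 17.3, 21.5 and 13.9 CPM in injury replicates and 13.9, 17.6, 12.1 and 15.7 CPM in naive replicates. The groups overlapped (log2 fold change 0.25 ± 0.16, 95% interval -0.074 to 0.57, adjusted p = 0.358). Dusp8 (chromosome 7, 142079490 to 142095843), whose promoter window held 2 cAMP response elements, had 24.6, 23.8, 27.5 and 19.4 CPM in injury replicates and 25.5, 21.0, 27.1 and 23.6 CPM in naive replicates. Its log2 fold change was -0.024 ± 0.13, and the 95% interval, -0.29 to 0.24, reached up to 1.18-fold higher and down to 0.818-fold (adjusted p = 0.943).

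Dusp26, an atypical member that lacks the kinase-docking domain of the typical group (chromosome 8, 31089471 to 31097047), had 174, 154, 229 and 159.6 CPM in injury replicates and 178, 181, 235 and 237 CPM in naive replicates. In each of the 4 replicate numbers the injury library was lower than the naive one, but the groups overlapped, since injury replicate 3 was above naive replicates 1 and 2. The log2 fold change was -0.21 ± 0.15 (95% interval -0.56 to 0.13, adjusted p = 0.468). The adjusted p was 0.0608 with the replicate block and 0.0238, a call, without injury replicate 3.

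The Sprouty genes pointed in opposite directions, and neither passed the main edgeR test. Spry2 (chromosome 14, 105891947 to 105896819) had 44.1, 51.9, 63.4 and 56.5 CPM in injury replicates and 50.9, 39.7, 48.5 and 44.6 CPM in naive replicates. Injury replicates 2 to 4 were above all naive libraries and injury replicate 1 was among them (log2 fold change 0.23 ± 0.11, unadjusted p = 0.0422, edgeR adjusted p = 0.182). Without injury replicate 1 the adjusted p was 0.0424, and without both libraries of number 1 it was 0.0156.

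Spry4 (chromosome 18, 38586247 to 38601415) had 4.91, 4.43, 7.24 and 5.63 CPM in injury replicates, against 10.4, 10.7, 7.06 and 7.27 CPM in naive replicates. Injury replicate 3 alone reached into the naive range, just above naive replicate 3. The mean in naive ganglia was 1.60 times that in injury ganglia, and the log2 fold change was -0.67 ± 0.23 (95% interval -1.14 to -0.20). With an adjusted p of 0.0537 it missed the threshold. It was called lower in 6 of the 16 alternatives, with adjusted p between 0.0264 and 0.186 over all of them: library totals gave 0.0344, no low-count filter 0.0456, a minimum mean of 5 CPM 0.0432, DESeq2 0.0334, and leaving out injury replicate 3 or naive replicate 3 gave 0.0264 and 0.0462. Without naive replicate 1, one of its highest values, the adjusted p was 0.133.

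**Figure D2:**
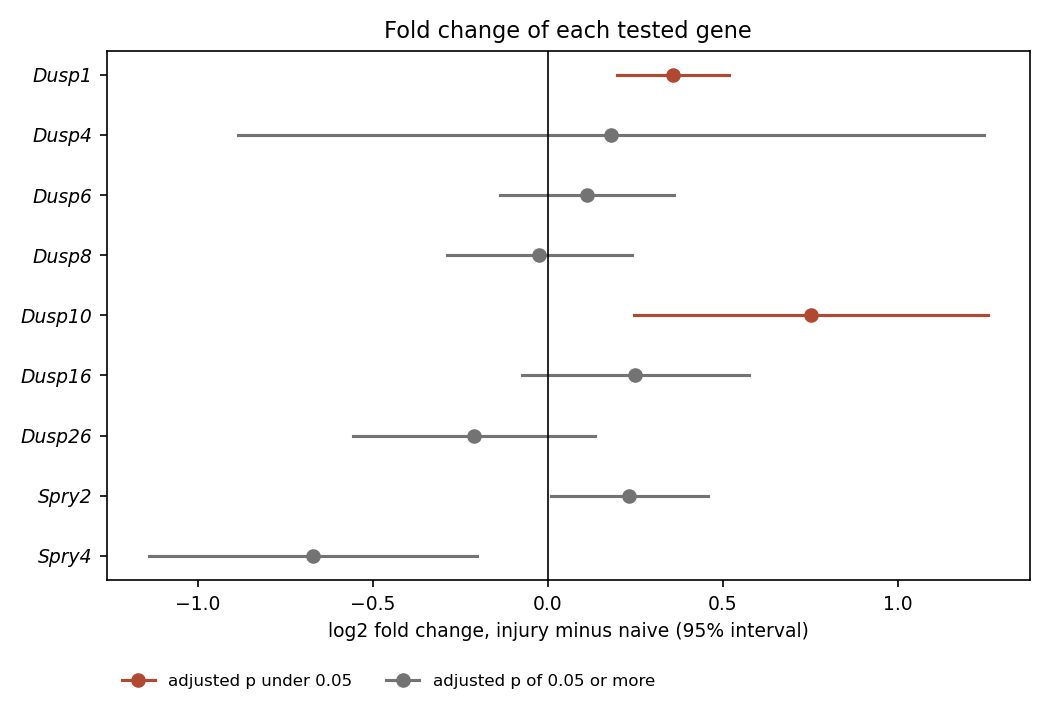
Log2 fold changes of the 9 tested genes, injury minus naive, with 95% intervals that are not corrected for the number of genes. Dusp1 (0.36) and Dusp10 (0.75) are the called genes; the interval of Spry4 lies below 0 although its adjusted p is 0.0537.

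Ratios within a library, which need no scaling between libraries, were compared for pairs of like role. Of 4 such ratios 3 could be computed, since Dusp5 had no counts. The log2 ratio of Spry4 to Spry2 counts was -3.16, -3.55, -3.13 and -3.32 in injury replicates and -2.29, -1.89, -2.78 and -2.62 in naive replicates. Every injury library lay below every naive one. The group means differed by -0.90, with p = 0.0286 in an exact two-sided permutation test over 70 splits, the smallest value that this design allows, and 0.0857 adjusted over the 3 ratios. Dusp16 to Dusp8 differed by 0.28 between the groups (exact permutation p = 0.229, adjusted 0.343) and Dusp4 to Dusp1 by -0.15 (exact permutation p = 0.714, adjusted 0.714). The naive libraries spread widely in the Dusp16 to Dusp8 ratio, with an SD of 0.384 against 0.0565 in the injury libraries.

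**Figure D3:**
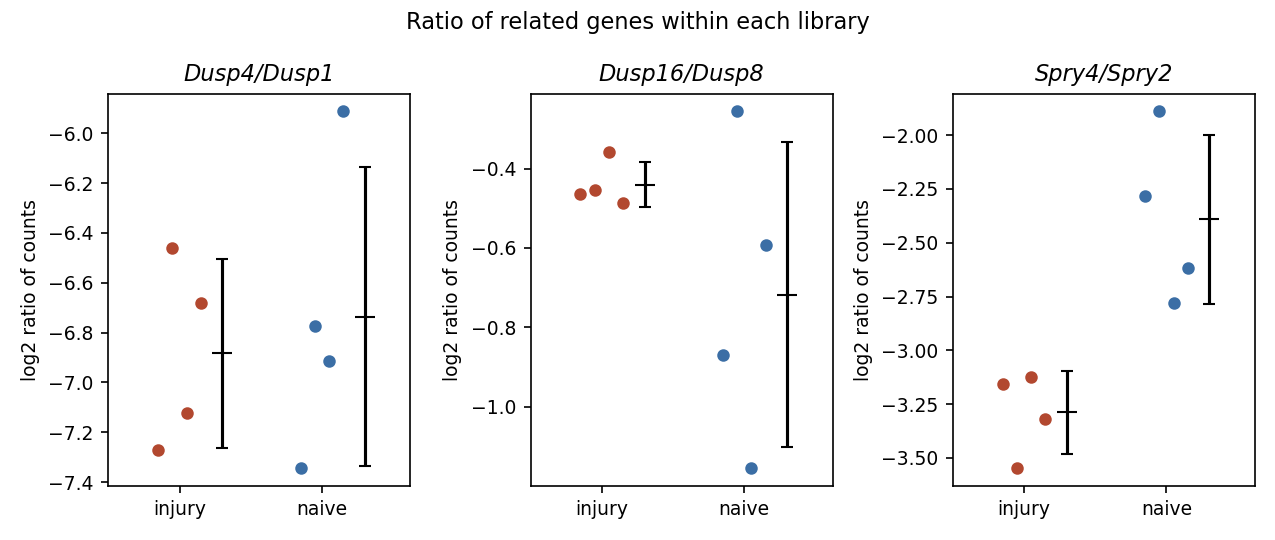
Log2 ratio of counts (0.5 added to each) for 3 pairs of genes, with 1 point per library, injury left and naive right, and the mean ± SD beside each group of 4. The Spry4 to Spry2 ratio is the panel in which all injury points (-3.55 to -3.13) lie below all naive points (-2.78 to -1.89).

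Within the injury group, 1 library stood high across most of the set. Injury replicate 3 was the highest of the 4 injury libraries in 8 of the 9 genes, all but Dusp4, and the lowest in none; among all tested genes it was the highest in 24.8%. Injury replicate 1 was the lowest in 4 of the 9 genes, and among all tested genes in 28.8%. Neither injury replicate 1 nor injury replicate 4 was the highest in any of the 9. In the naive group the highest value was spread over the libraries, with 3, 2, 2 and 2 genes in naive replicates 1 to 4. Leaving out injury replicate 3 lowered the log2 fold change of Dusp10 to 0.63, that of Dusp16 to 0.13 and that of Spry2 to 0.13. What sets that library apart in these genes was not tested.

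Other dual-specificity phosphatases gave 2 calls among 14 tested of 17 listed, both higher, beside 12.6% of all genes tested (8.12% higher), with a median log2 fold change of 0.068. Dusp7, a cytoplasmic ERK phosphatase close to Dusp6, had 26.4 ± 4.64 CPM in injury and 16.3 ± 2.49 CPM in naive ganglia (log2 fold change 0.69 ± 0.15, edgeR adjusted p = 0.00183). Dusp14, an atypical member, had 19.8 ± 1.73 CPM in injury and 12.7 ± 4.75 CPM in naive ganglia (adjusted p = 0.0212); its call was lost without injury replicate 2 or naive replicate 2, 3 or 4 (0.0701 to 0.0984). Dusp15 had 8.70 ± 2.12 CPM in injury and 12.5 ± 1.34 CPM in naive ganglia (adjusted p = 0.0733), and Dusp12 had 14.4 ± 1.12 CPM in injury and 12.1 ± 1.95 CPM in naive ganglia (adjusted p = 0.367).

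Dusp9, a typical MAP kinase phosphatase that prefers ERK, was too low for the test but was counted on the injured side alone; it was singled out after its values were seen. It had 7, 13, 12 and 29 counts in injury replicates 1 to 4 and 0 in all 4 naive libraries. The pooled injury level, 0.762 CPM, was 22.9 times a limit of 3 counts over the naive group (0.0333 CPM). That limit covers counting error on the naive side only, and the injury level is a point estimate, so 22.9 is not a lower bound. Injury replicate 4 held 29 of the 61 counts, and without it the injury level was 15.1 times the limit. Without any other single library it was 15.3 to 28.2 times the limit. Without the low-count filter, over 17311 genes, edgeR called it higher (adjusted p = 0.00207). The levels remain small, between 0.310 and 1.76 CPM.

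Of 11 other inhibitors of the Sprouty, Spred and Ras-ERK kind, 10 were tested and 1 was called, as higher, beside 8.12% of all genes tested, with a median of 0.027. Lrig1, a membrane protein that promotes the turnover of ErbB receptors, rose 2.40-fold, to 15.1 ± 3.08 CPM in injury against 6.29 ± 2.33 CPM in naive ganglia (log2 fold change 1.25 ± 0.23, edgeR adjusted p = 0.000604). Spry1 had 4.27 ± 1.57 CPM in injury and 2.93 ± 1.36 CPM in naive ganglia (adjusted p = 0.332). Nf1, the Ras inactivator neurofibromin, and Errfi1, an inhibitor of the EGF receptor, had log2 fold changes of -0.25 and -0.32 and adjusted p of 0.488 and 0.538.

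Kinases and adaptors of the cascades that these phosphatases restrain were read next. Of 20 genes of the Ras-ERK cascade, 19 were tested, 3 were called higher and 2 lower, with a median of 0.085. Over all genes tested, 8.12% were called higher and 4.47% lower. Rps6ka1, a kinase activated by ERK, rose 1.91-fold, to 22.8 ± 2.19 CPM in injury against 11.9 ± 2.52 CPM in naive ganglia (edgeR adjusted p = 0.000145). The adaptor gene Grb2 rose 1.28-fold and Nras 1.19-fold, while Sos1, which activates Ras, and the kinase gene Araf fell, with log2 fold changes of -0.30 and -0.25. Mapk3, which encodes an ERK kinase, was not called (log2 fold change -0.087, edgeR adjusted p = 0.327).

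Of 26 genes of the JNK and p38 cascade, all were tested, 2 were called higher and 2 lower, beside the same 8.12% and 4.47% of all genes, with a median of -0.0031. Mapk14, a p38 kinase gene, had 38.8 ± 2.84 CPM in injury and 26.4 ± 1.46 CPM in naive ganglia (log2 fold change 0.56 ± 0.10, edgeR adjusted p = 0.000515). Mapk11, another p38 gene, had 83.3 ± 5.16 CPM in injury and 81.3 ± 1.34 CPM in naive ganglia and was not called (log2 fold change 0.034, adjusted p = 0.843). Mapkapk2, a kinase activated by p38, had 55.8 ± 4.24 CPM in injury and 37.7 ± 3.16 CPM in naive ganglia (log2 fold change 0.56 ± 0.10, adjusted p = 0.000180). Of 10 kinase genes at the top of the cascade, Map3k4 and Map3k5 fell (log2 fold changes -0.34 and -0.40, adjusted p = 0.0435 and 0.0221), and the other 8 were not called, 3 of them with a log2 fold change above 0. The call of Map3k4 was lost without injury replicate 2 or 4 or naive replicate 1, 2 or 3 (adjusted p 0.0701 to 0.155), and that of Map3k5 without injury replicate 3 or 4 or naive replicate 2 or 4 (0.0513 to 0.0993). The JNK genes Mapk8, Mapk9 and Mapk10 were not called, with log2 fold changes of 0.17, -0.042 and -0.010.

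Of 19 genes known to be induced by ERK signalling, 4 were called higher and 1 lower (5 and 3 with the replicate block), with a median of 0.042. The shares over all genes tested were 8.12% higher and 4.47% lower. Phlda1, a pleckstrin homology protein, rose 2.59-fold, to 161 ± 32.8 CPM in injury against 62.2 ± 3.78 CPM in naive ganglia (edgeR adjusted p = 3.92e-06). Etv5, an ETS transcription factor often read beside Spry4 and Dusp6 as an output of ERK, had 192, 210.1, 196 and 209.7 CPM in injury replicates and 135, 140.0, 134 and 133 CPM in naive replicates (log2 fold change 0.57 ± 0.06, adjusted p = 3.19e-07). Every injury library lay above every naive one for Etv5, which was not so for Spry4 or Dusp6 in the same libraries. Ier3 and Fosl2 rose 1.32-fold and 1.50-fold. Fosl1, an AP-1 subunit, had the largest log2 fold change of these genes, 2.51 ± 0.89, at low levels (0.909 to 2.52 CPM in injury and 0 to 1.13 CPM in naive libraries) and was not called (adjusted p = 0.0748); the replicate block and limma-voom called it higher. Egr1, an immediate early factor, fell, with a log2 fold change of -0.25 and an adjusted p of 0.0223. The call of Egr1 was lost without injury replicate 2 or 4 or naive replicate 1 or 3 (0.0592 to 0.101). Ccnd1 and Etv1 were not called by the main edgeR test. The replicate block, library totals, no low-count filter and limma-voom each called both of them lower.

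**Figure D4:**
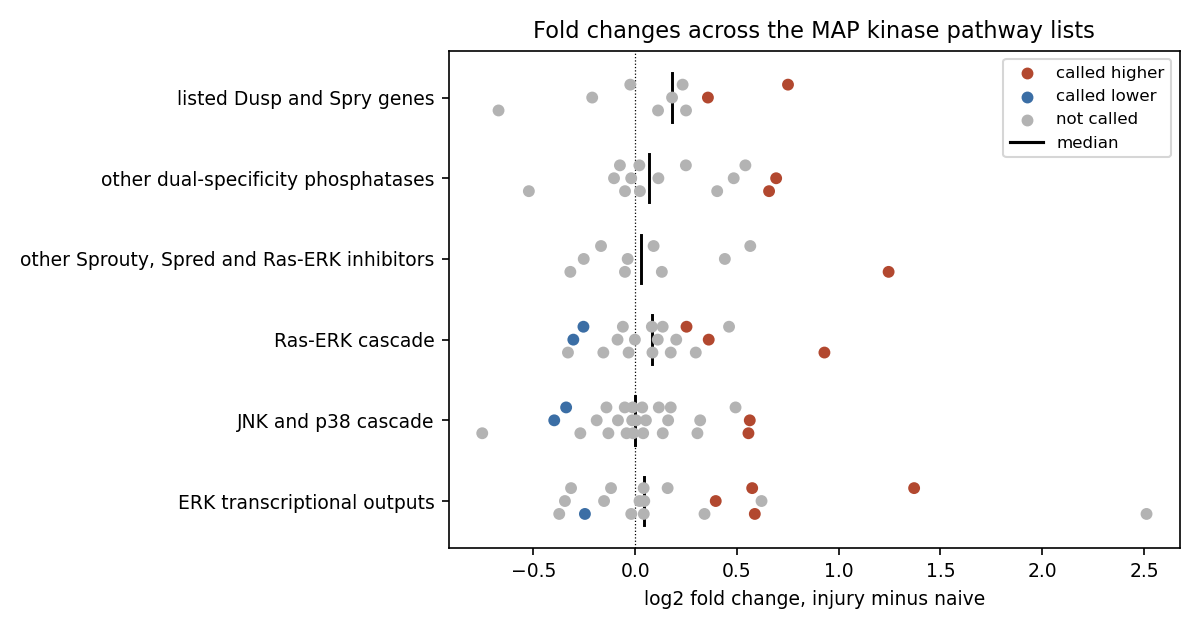
Log2 fold changes, injury minus naive, of every tested gene in the 10-gene set and 5 pathway lists, with 1 point per gene and a black bar at each median. Called genes stand on both sides of 0 in the cascade lists, all list medians lie between -0.0031 and 0.18, and the uncalled point at 2.51 is Fosl1.

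Likeness to Dusp10, the called member with the largest log2 fold change, was measured over the 8 libraries as the root mean square difference of log2 CPM profiles centred on the naive mean, among 9800 named genes averaging 5 CPM or more. The nearest profile was that of Dusp7 (0.102), followed by Tmc7 (0.137), Ifi35 (0.162), Ccdc71l (0.171) and the intermediate filament gene Vim (0.180). Their log2 fold changes were 0.69, 0.68, 0.72, 0.61 and 0.75. Dusp7 shared with Dusp10 the low value in injury replicate 1, 19.5 CPM against 27.8 to 29.2 CPM in the other injury libraries. Likeness was measured over these same 8 libraries, so like fold changes and like values in single libraries follow from the choice.

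Cell type markers were read beside these results. The summed level of 9 sensory neuron markers was 14556 to 16414 CPM in injury and 13819 to 15328 CPM in naive libraries, with 1 marker called, Isl1, lower. By gene, 2 of the 9 had a log2 fold change above 0 and the median was -0.075. Of the 9, 2 were lower in every injury library than in any naive one, beside 7.02% of all tested genes. Sums of 8 satellite glial markers (1357 to 1557 CPM in injury and 1215 to 1581 CPM in naive libraries) and 7 myelinating Schwann cell markers (699 to 897 CPM in injury and 717 to 1080.0 CPM in naive libraries) overlapped, with Glul called higher among the glial ones. The Schwann cell markers had a median log2 fold change of -0.78, with 6 of 7 below 0 and none called. Of these 7, 1 was lower without overlap between the groups. Of 8 satellite glial and 6 fibroblast markers, 1 each was higher without overlap, beside 9.8% of all tested genes. Macrophage markers summed to 13.9 to 21.6 CPM in injury and 10.5 to 17.0 CPM in naive libraries, neutrophil markers to 133 to 266 CPM in injury and 141 to 471 CPM in naive libraries, endothelial markers to 114 to 186 CPM in injury and 103 to 148 CPM in naive libraries, and fibroblast markers to 171 to 257 CPM in injury and 157 to 326 CPM in naive libraries. Among these last 4 sets 1 gene was called, Pdgfra, higher. With the replicate block, Uchl1 (neuron) and Pecam1 (endothelium) were also called higher and Fabp7 (satellite glia) lower. Of 7 endothelial markers 6 had a log2 fold change above 0, with none called without the block. Log2 fold changes above 0 were found for 0 of 7 neutrophil markers (median -0.19) and 4 of 8 tested macrophage markers. They were also found for 5 of 8 satellite glial and 2 of 6 fibroblast markers. No marker found in the table was at 0 in all libraries; the macrophage marker Adgre1 and the neutrophil marker Ly6g were not analysed here. The part of these cell types in the results above was not tested.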

How the data were processed

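RNA of 4 injury and 4 naive libraries was analysed from the deposited table of whole-number counts per gene symbol, which the authors had not normalised. The submitters' processing notes name STAR, HTSeq, bcl2fastq 2.17 and the builds GRCm38 and mm10. Other versions, strand mode and annotation were not given in the sources used here. Of 24060 rows, 27 hold a calendar date in place of a symbol (0.146% to 0.158% of counts) and were left out. Replicates of a group differed by more than sampling noise, with 8.09 to 19.2 as chi-square over its degrees of freedom.

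Genes were kept by filterByExpr, scaled by TMM and tested with edgeR 4.0.16 in R 4.3.3 (robust quasi-likelihood F-test, no block, Benjamini-Hochberg adjustment over 13639 genes). The step was tested on simulated data in which all genes had the same spread beyond sampling noise and libraries were not paired. That test does not bear on single calls in the real libraries. Standard errors are the absolute log2 fold change over the square root of F; 95% intervals use the test's degrees of freedom. The labels name no molecular identifiers, and floors cover counting error only. Per the design text each repeat held both sides of 2 mice, so equal numbers were taken as paired in the replicate block. Deviations of same-numbered libraries correlated weakly (0.0352 to 0.0569). Injury replicates 1, 2 and 3 still matched the naive library of their own number best, while injury replicate 4 matched naive replicate 3. The block called 1245 genes higher and 779 lower, against 1108 and 609 without it. The labels do not say outright that library numbers are those repeats.

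Other settings tried were library totals or DESeq2 size factors for scaling, a replicate block, no low-count filter, a minimum mean of 5 CPM, DESeq2 1.42.0, limma-voom (limma 3.58.1) and leaving out each library. Leaving out both libraries of number 1 and the Dusp9 level against its limit without each library were added after seeing the data. The first was added as naive replicate 1 stood apart on the second principal component (46.6, against -21.1 to 11.3 elsewhere). Named genes were the 10 set members, up to 4 genes of smallest p per pathway list, the 5 profiles most like the member with the largest called rise, and Atf3. The main edgeR test called no member lower, so no profile was sought for a fall. Araf, Egr1, Fosl1, Ccnd1, Etv1, Mapk3, Mapk8, Mapk9, Mapk10, Mapk11, Uchl1, Pecam1, Fabp7, Dusp9, Ergic1, 1700056E22Rik, Kpna2, Isl1, Glul and Pdgfra fall outside that rule. Their values were known when they were picked. Members and lists were chosen with earlier results of these data known. Positions are GENCODE M21 on GRCm38; promoters are RefSeq GRCm38.p6.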

Additional observations from a re-analysis of the deposited data

Results flagged for a closer look

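In 72 groups of 4 libraries, taken from the named genes and ratios, 2 held a library far from the other 3 by Dixon's test; chance gives about 1 in 20. Dusp7 stood at 19.5 CPM in injury replicate 1, against 27.8 to 29.2 CPM in the other injury libraries. Spry1 stood at 4.96 CPM in naive replicate 1, against 2.12 to 2.37 CPM in the other naive libraries.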

How the results depend on the processing

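Over the alternatives, Dusp1 was called higher throughout. The number of set members called higher was 2, against 1 with the replicate block and 1 with library totals, and 1 to 3 when single libraries were left out. The main edgeR test called none lower, against 1 with library totals, no low-count filter, a minimum mean of 5 CPM or DESeq2, and 0 to 2 without single libraries. The replicate block ended the call of Dusp10 (adjusted p = 0.0563) and changed no other member's call. Direction turned for Dusp6 without injury replicate 3 (log2 fold change -0.034) and for Dusp8 without injury replicate 4 (0.056), naive replicate 1 (0.0039) or naive replicate 3 (0.022), none of them called; without single libraries Dusp6 ranged from -0.034 to 0.21 and Dusp8 from -0.11 to 0.056. Over all genes, 609 were called lower and 1001 with library totals; without single libraries 847 to 1156 were higher and 452 to 703 lower. ERK outputs called lower numbered 3 with the replicate block, library totals, no low-count filter, a minimum mean of 5 CPM and limma-voom, 2 with DESeq2, and 0 to 2 without single libraries. Without single libraries, JNK and p38 genes called lower numbered 0 to 2, and other phosphatases 1 to 3 higher and 0 to 1 lower. The Spry4 to Spry2 difference was -0.90 in the pairing by replicate block as well, where a sign-flip test cannot go below its p of 0.125, and -1.02 to -0.73 without single libraries, with an exact permutation p of 0.0571 without injury replicate 2 or 4. The Dusp16 to Dusp8 difference ranged from 0.13 to 0.43 (exact permutation p = 0.0286 without naive replicate 2) and the Dusp4 to Dusp1 difference from -0.35 to 0.13, the last without naive replicate 4. The Dusp5 to Dusp6 ratio gave no value, as Dusp5 had no counts, and Dusp4 none with a minimum mean of 5 CPM. The causes were not tested. Low counts limit Dusp4 and Dusp9; whether the 0 of Dusp5 comes from depth or from the counting was not tested.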
